A study of Mus musculus with 8 samples.

Results

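The genes described here are the collagen chains, taken as every gene whose single annotated symbol has the form Col, a number, the letter a and a number. The rule found 42 genes of the 18193 with a single symbol, measured by 82 probe sets. Of these genes 15 had 1 probe set and 27 had several, and a gene is given by its brightest probe set, that of the highest 8-array mean, unless another is named. The values were read in C2C12 cells, an established mouse myoblast line whose cells fuse into myotubes when serum is reduced. All 8 cultures were transduced with a lentivirus (moi 100), grown on for 5 to 7 days, sorted for GFP to 93 to 99% positive cells and kept in 5% horse serum for 4 days. In 4 cultures the virus carried siRNA against DOR, which Trp53inp2 encodes, and in the 4 control cultures it carried scrambled RNA. The labels also name the cells confluent myoblasts and bear a D2 mark that is not explained, so the stage at harvest is not settled by them. They call the cultures biological replicates of 1 line without saying how these were derived, so p-values measure the spread among these cultures only, which may be partly technical. From 25 ng of RNA per culture, whole-transcriptome amplification gave the material for 1 Affymetrix array each.

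Collagens are extracellular proteins made of chains wound into a triple helix. Chains pair inside the endoplasmic reticulum after hydroxylation of prolines and lysines, and many collagens are trimmed outside the cell and cross-linked by lysyl oxidases. Fibrillar collagens form the banded fibrils of connective tissue, collagen IV forms the network of the basement membrane around muscle fibres, and collagen VI forms beaded microfilaments that link that membrane to the fibrils. Mutations in collagen VI genes are known to cause muscle weakness, and in muscle the interstitial fibroblasts are a main source of it. Fibril-associated collagens sit on the surface of fibrils, multiplexins join basement membranes to the matrix beside them, and transmembrane collagens are cell surface proteins.

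Of the collagen chains, 2 of collagen VI and 1 fibril-associated chain differed past the threshold. The chains Col6a1 and Col6a2 rose in the DOR siRNA cultures, 1.92-fold and 1.78-fold, and so did the fibril-associated chain Col16a1, by 1.45-fold. No other chain passed the test, and no chain fell. Col6a3, the third widely expressed chain of collagen VI, lay higher in every DOR siRNA culture than in any scrambled one but missed the threshold (0.48 ± 0.12 log2 units, limma adjusted p = 0.061). The collagen I chain Col1a2 and the minor fibrillar chain Col11a1 had differences of 0.49 and 1.29 log2 units with a wide spread among the DOR siRNA cultures, and did not pass.

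The promoters of the 3 chains that rose, and of Col6a3 as partner of the collagen VI chains, are given first. Col6a1 and Col6a2 are neighbours in the genome and both rose, but their windows are separate. Whether their place had a part in the rise was not tested. Each line holds the 250 bases before an annotated start, read 5′ to 3′ on the strand of the gene, from RefSeq on build GRCm38.p6. Capitals mark matches, on either strand, to the GC box (GGGCGG), the CCAAT box (CCAAT) or the E-box (CANNTG), which are known binding motifs of Sp1-like factors, of NF-Y and of helix-loop-helix factors such as MyoD. The TATA box (TATAAA) was searched too.
Col6a1, chr10:76726045-76726294, minus strand: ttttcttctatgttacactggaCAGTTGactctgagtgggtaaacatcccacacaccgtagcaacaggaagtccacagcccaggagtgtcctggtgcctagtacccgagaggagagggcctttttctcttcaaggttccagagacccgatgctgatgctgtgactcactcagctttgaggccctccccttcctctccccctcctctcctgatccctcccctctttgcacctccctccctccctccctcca
Col6a2, entry 1, chr10:76623405-76623654, minus strand: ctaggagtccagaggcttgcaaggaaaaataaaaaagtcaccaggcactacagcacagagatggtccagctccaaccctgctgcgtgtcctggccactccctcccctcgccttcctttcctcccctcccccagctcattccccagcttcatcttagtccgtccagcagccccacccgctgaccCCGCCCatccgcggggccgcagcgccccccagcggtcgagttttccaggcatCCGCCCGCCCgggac
Col6a2, entry 2, chr10:76623631-76623880, minus strand: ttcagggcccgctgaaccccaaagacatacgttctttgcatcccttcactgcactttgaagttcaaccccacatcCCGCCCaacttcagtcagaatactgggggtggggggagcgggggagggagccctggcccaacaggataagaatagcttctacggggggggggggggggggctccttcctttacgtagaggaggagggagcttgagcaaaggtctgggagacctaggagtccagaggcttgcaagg
Col6a3, chr1:90843972-90844221, minus strand: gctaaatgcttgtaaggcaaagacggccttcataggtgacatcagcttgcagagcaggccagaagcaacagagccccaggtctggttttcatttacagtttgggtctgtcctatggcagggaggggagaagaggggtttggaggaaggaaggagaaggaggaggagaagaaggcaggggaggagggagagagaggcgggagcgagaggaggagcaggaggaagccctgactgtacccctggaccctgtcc
Col16a1, chr4:130047590-130047839, plus strand: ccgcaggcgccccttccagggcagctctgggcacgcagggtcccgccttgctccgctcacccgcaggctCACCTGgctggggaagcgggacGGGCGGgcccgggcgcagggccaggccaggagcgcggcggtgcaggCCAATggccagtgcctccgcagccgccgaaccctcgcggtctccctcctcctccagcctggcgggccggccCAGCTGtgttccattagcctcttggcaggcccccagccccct
None of the 5 stretches holds the TATA letters. Col6a1 holds 1 E-box and neither a GC box nor a CCAAT box, while the first entry of its neighbour Col6a2 holds 3 GC boxes, the last pair overlapping, and the second entry holds 1. Col6a3 holds none of the 4 motifs in this window. Col16a1 holds 1 GC box, 1 CCAAT box and 2 E-boxes. Promoter entries were found for 33 of the 42 chains, 36 entries in all. Of those, 58.3% held a GC box against 32.7% of all 32851 entries, 50.0% an E-box against 66.2%, 36.1% a CCAAT box against 33.8% and 13.9% the TATA letters against 12.4%. These letters are a description of the windows, and a window without a motif says nothing about the factor.

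The knockdown and the state of the arrays were checked before the chains were compared. By its brighter probe set, Trp53inp2 stood at 11.50, 11.55, 11.43 and 10.92 on the scrambled arrays and 9.46, 9.93, 9.49 and 9.18 on the DOR siRNA arrays (log2 units), a difference of -1.83 ± 0.17 (limma adjusted p = 0.00087), while its dimmer probe set differed by 0.14 ± 0.08. DOR siRNA 2 stood apart: its 18S ribosomal RNA probe sets averaged 9.20 against 7.47 to 8.13 on the other arrays, its Gapdh probes read 0.065 higher at the 3′ than at the 5′ end where the others gave -0.16 to -0.094, and its quality weight was the smallest, 0.456. It also held the highest value of many collagen chains, so values without it are given beside the main results. Whether these signs of RNA quality had a part in the collagen values was not tested. Markers of myotubes such as Myh3 and Myog were bright in both groups, and 6 of 6 endothelial markers lay below the median of all probe sets (6.18 log2 units), which serves here to mark dim probe sets.

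Across the 42 chains, 3 rose, 0 fell and 39 were not past the limma threshold, an adjusted p of 0.05, against 3.11% of all genes higher and 1.45% lower. At an unadjusted p below 0.05, 10 chains were higher and 0 lower, a share of 23.8% higher where all genes had 11.5% higher and 6.55% lower. Those 10 were the 3 chains that rose and Col1a2, Col3a1, Col4a1, Col4a2, Col6a3, Col11a1 and Col17a1. Of all differences 33 of 42 were above 0, with a median of 0.071, where 54.9% of all genes were above 0 with a median of 0.015. The groups did not overlap for 4 chains that were higher (8.10% of all genes) and 1 that was lower (4.13%). Of the 82 probe sets 4 rose and 0 fell, against 2.04% of all probe sets higher and 3.22% changed in either direction. In the paired fit, which takes the replicate number as a block, 4 chains rose, with Col6a3 added (5.10% of all genes), and 1 fell, the dim Col19a1 (3.16%). Without DOR siRNA 2 the count was 2 higher, Col6a1 and Col16a1, and 0 lower, with 32 of 42 differences above 0 and a median of 0.068. The shares of all genes in that fit are not given here, so these counts have no background beside them.

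**Figure D1:**
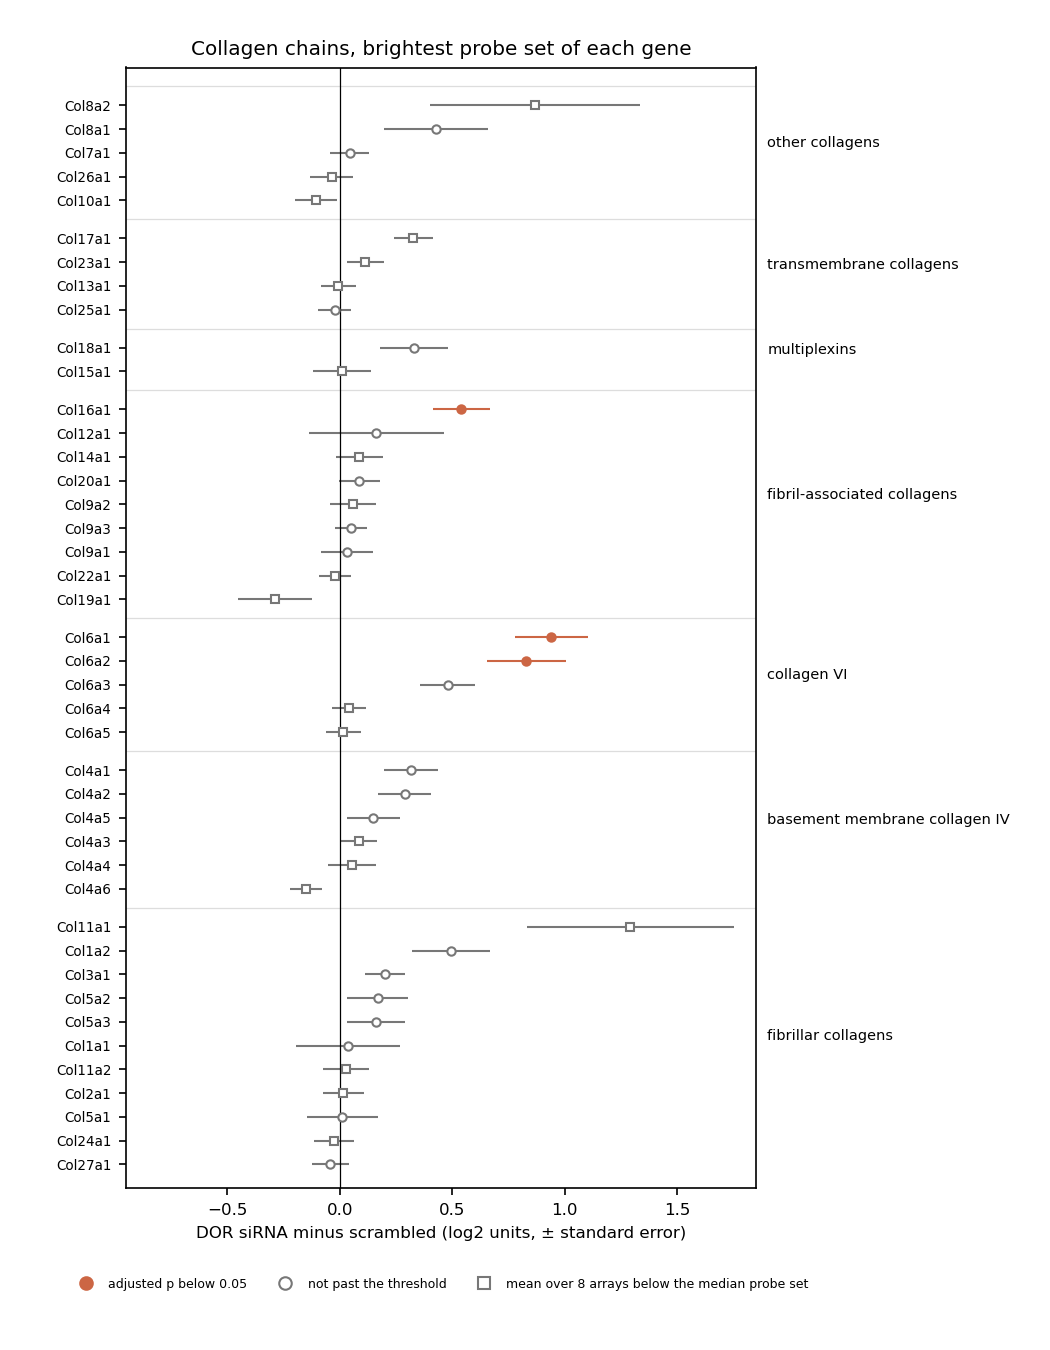
Difference between DOR siRNA and scrambled cultures in log2 units (horizontal axis) for the brightest probe set of each of 42 collagen genes, grouped by class; bars are standard errors from the limma fit over 4 arrays in each group. Filled circles mark the 3 chains that passed the threshold, Col6a1, Col6a2 and Col16a1, and squares mark the 20 chains whose mean over the 8 arrays lay below the median of all probe sets.

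In 22 of 42 chains the mean over the 8 arrays was no lower than the median of all probe sets, and 20 of these 22 differences were above 0, with a median of 0.17. Genes of that kind numbered 11268, with a median of 0.019, and 4.57% of them were called higher. The groups did not overlap for 3 of the 22 chains, all higher, where 11.1% of such genes were higher without overlap. Among the 20 dimmer chains 13 differences were above 0, the median was 0.021 and none passed, with 2 higher and 0 lower at an unadjusted p below 0.05. Dim probe sets give compressed differences, and no detection call was used, so the dimmer chains were not shown to be expressed or absent.

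Collagen VI was measured by 5 genes, of which 2 rose, 0 fell and 3 did not pass, with a median difference of 0.48. Col6a1, which encodes the α1 chain, read 10.62, 10.56, 10.91 and 10.57 log2 units on the scrambled arrays and 11.57, 12.09, 11.59 and 11.18 on the DOR siRNA arrays. Every DOR siRNA array was above every scrambled one. The mean rose from 10.66 ± 0.17 to 11.61 ± 0.37 (SD, n = 4 each), a difference of 0.94 ± 0.16 (limma adjusted p = 0.013), and the call held whichever array was left out (0.78 to 1.08, limma adjusted p up to 0.046). Without DOR siRNA 2 the difference was 0.78 ± 0.12 (limma adjusted p = 0.012).

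Col6a2 encodes the α2 chain, which assembles with the α1 and α3 chains before export. Its values were 9.83, 9.73, 10.17 and 9.75 on the scrambled arrays and 10.80, 10.97, 10.92 and 10.12 on the DOR siRNA arrays. DOR siRNA 1 to 3 lay above all scrambled arrays, and DOR siRNA 4 lay within their range, just under scrambled 3. The difference was 0.83 ± 0.18 (limma adjusted p = 0.031). The second probe set of Col6a2 gave 0.84 ± 0.18 (limma adjusted p = 0.032). The call of the brighter one was lost without DOR siRNA 1, 2 or 3 or scrambled 1 or 2, with limma adjusted p between 0.058 and 0.096 and differences of 0.74 to 0.81. The value without DOR siRNA 2 was 0.74 ± 0.18 (limma adjusted p = 0.058).

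Col6a3 encodes the large α3 chain, whose end is released as the fragment endotrophin. It read 10.84, 10.50, 10.91 and 10.51 on the scrambled arrays and 11.13, 11.37, 11.24 and 10.94 on the DOR siRNA arrays. The groups did not overlap, although DOR siRNA 4 lay close above scrambled 3. The difference of 0.48 ± 0.12 had a limma adjusted p of 0.061, which became 0.030 in the paired fit, 0.046 with dim probe sets left out and 0.044 without DOR siRNA 4. The difference was 0.42 ± 0.12 with DOR siRNA 2 left out (limma adjusted p = 0.11). The other 2 genes, Col6a4 and Col6a5, encode alternative partners in the place of α3. Col6a4 read 5.23 to 5.46 and Col6a5 read 2.69 to 2.92 over all 8 arrays, with differences of 0.040 and 0.015.

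**Figure D2:**
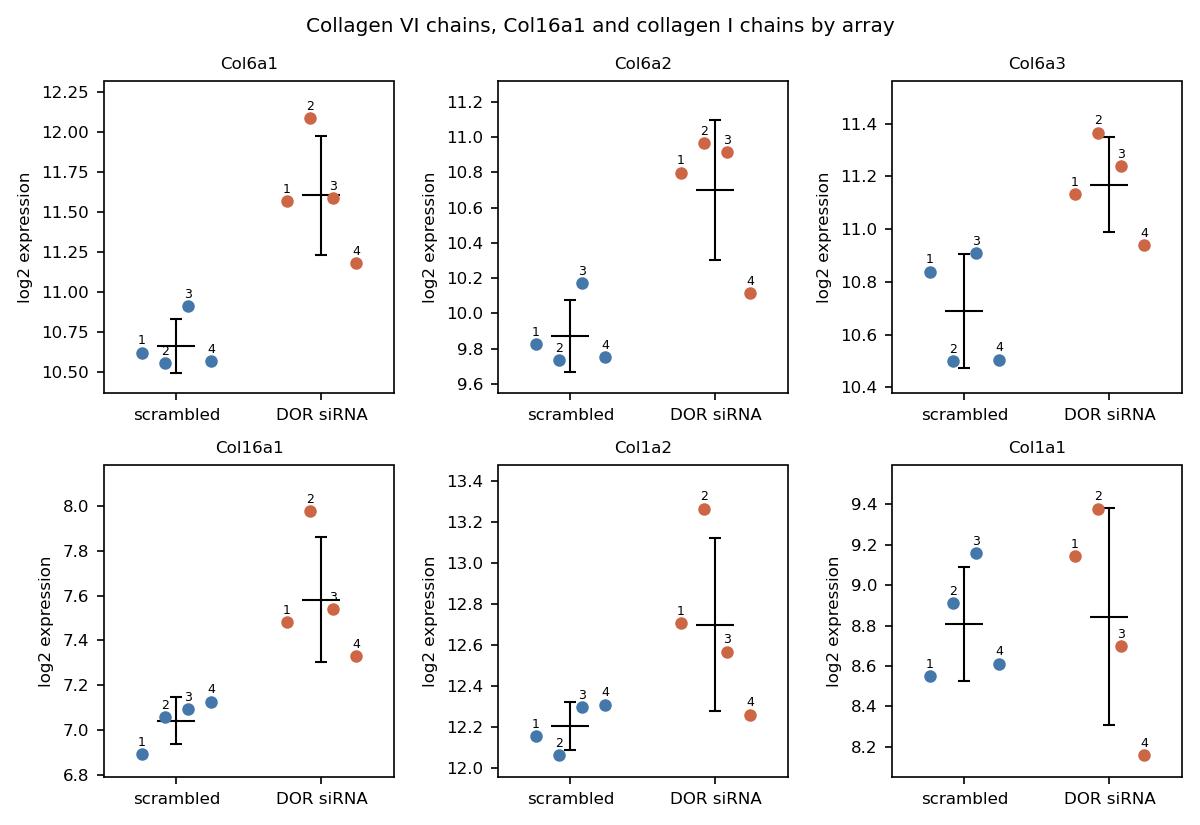
Log2 expression (vertical axis, its range differing between panels) of Col6a1, Col6a2, Col6a3, Col16a1, Col1a2 and Col1a1 in the 4 scrambled and 4 DOR siRNA arrays; points carry the replicate number, and lines show the mean and SD of a group. Col6a1 separated fully, with DOR siRNA values of 11.18 to 12.09 against 10.56 to 10.91, whereas the values of Col1a1 overlapped, 8.16 to 9.38 against 8.55 to 9.16.

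Fibril-associated collagens had 9 measured members. Of these 1 rose, 0 fell and 8 did not pass, with a median of 0.058, and at an unadjusted p below 0.05 only the same 1 was higher and 0 were lower. Col16a1, a chain found near fibrils and at cell contacts, read 6.89, 7.06, 7.09 and 7.13 on the scrambled arrays and 7.48, 7.98, 7.54 and 7.33 on the DOR siRNA arrays. Every DOR siRNA array was higher, DOR siRNA 2 most. The difference was 0.54 ± 0.13 (limma adjusted p = 0.045). Without DOR siRNA 2 it was 0.41 ± 0.09 and passed (limma adjusted p = 0.039), but it did not pass without DOR siRNA 1 or 3 or scrambled 1, 2 or 3 (limma adjusted p between 0.082 and 0.14).

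Col12a1, which coats collagen I fibrils, varied as much within groups as between them. Its values were 8.52, 7.77, 8.19 and 9.01 on the scrambled arrays and 8.88, 9.18, 7.95 and 8.13 on the DOR siRNA arrays. The groups overlapped throughout. The difference was 0.16 ± 0.30 (limma adjusted p = 0.88), and it turned to -0.051 without DOR siRNA 2 and -0.039 without scrambled 2. Col9a1, Col9a2 and Col9a3 of cartilage collagen IX had differences of 0.034 to 0.058 (Col9a1 0.12 without DOR siRNA 2), and Col14a1, Col20a1 and Col22a1 ranged from -0.021 to 0.088. Col19a1, known from the differentiation of muscle cells, was dim, at 4.72 to 5.23 in the scrambled and 4.38 to 5.02 in the DOR siRNA arrays. Its difference was -0.29 ± 0.16 (limma adjusted p = 0.47), and within each replicate number the DOR siRNA array was the lower one, and the paired fit gave an adjusted p of 0.049 by limma. Its other 2 probe sets differed by -0.17 and -0.071 and did not pass in that fit.

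The fibrillar collagens, 11 genes, had none that passed the limma test, with 3 higher and 0 lower at an unadjusted p below 0.05 and a median of 0.036. In 5 of the 11 the SD among the DOR siRNA arrays was over 2 times that among the scrambled ones. Col1a2, the α2 chain of collagen I, read 12.15, 12.06, 12.30 and 12.31 on the scrambled arrays and 12.71, 13.26, 12.57 and 12.26 on the DOR siRNA arrays. DOR siRNA 1, 2 and 3 lay above every scrambled array, and DOR siRNA 4 lay among them. The difference was 0.49 ± 0.17 (limma adjusted p = 0.17). It was 0.31 ± 0.11 without DOR siRNA 2 (limma adjusted p = 0.21). The other probe sets of Col1a2 gave 0.51 ± 0.16 and 0.52 ± 0.15 and did not pass either (limma adjusted p = 0.13 and 0.092).

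Col1a1, the α1 chain that supplies the other strands of the same helix, had a difference near 0. It read 8.55, 8.91, 9.16 and 8.61 on the scrambled arrays and 9.14, 9.38, 8.70 and 8.16 on the DOR siRNA arrays. The DOR siRNA arrays held both the highest and the lowest value. The difference was 0.036 ± 0.23 by this probe set and -0.031 ± 0.25 by the other (limma adjusted p = 0.97 and 0.98), and leaving out 1 array moved the former between -0.14 and 0.26. Relative to Col1a1, Col1a2 was 0.46 log2 units higher in the DOR siRNA arrays than in the scrambled ones. That change did not pass (exact two-sided permutation p = 0.086, 0.19 adjusted over 5 pairs of chains, where 4 arrays against 4 cannot go below 0.0286).

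Col3a1 forms thin fibrils with collagen I. Its values were 13.80, 13.72, 13.85 and 13.75 on the scrambled arrays and 13.94, 14.16, 14.03 and 13.79 on the DOR siRNA arrays. Again DOR siRNA 1 to 3 were above all scrambled arrays and DOR siRNA 4 among them. The difference was 0.20 ± 0.09 (limma adjusted p = 0.30), 0.34 ± 0.10 by the dimmer probe set (0.12), and 0.14 ± 0.08 by the brighter without DOR siRNA 2. Col5a1, Col5a2 and Col5a3 of collagen V, which starts the fibrils, differed by 0.011 ± 0.16, 0.17 ± 0.13 and 0.16 ± 0.13. The DOR siRNA arrays of Col5a1 spanned 10.50 to 11.36, a range that held every scrambled array (10.83 to 11.08). Without DOR siRNA 2 the sign of Col5a1 turned (-0.13 ± 0.13), Col5a2 differed by 0.055 ± 0.12 and Col5a3 by 0.12 ± 0.14. The probe sets of Col5a1 disagreed, the others giving 0.22 and 0.29. The 2 probe sets of Col5a2 differed in sign, 0.17 and -0.11.

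Col11a1, whose product sets the width of cartilage fibrils together with Col11a2 and Col2a1, had the largest difference among the chains, and among the DOR siRNA arrays its SD of 1.17 was second to the 1.23 of the dim Col8a2. It read 4.72, 5.40, 4.76 and 5.38 on the scrambled arrays and 6.44, 7.97, 5.72 and 5.30 on the DOR siRNA arrays. DOR siRNA 2 stood far above, DOR siRNA 1 and 3 lay above the scrambled arrays, and DOR siRNA 4 was within them. The difference was 1.29 ± 0.46 (limma adjusted p = 0.18). It was 0.75 ± 0.26 without DOR siRNA 2 (limma adjusted p = 0.16). The dimmer probe set of Col11a1 showed the same order, 5.40, 6.40, 3.65 and 3.43 on the DOR siRNA arrays against 3.06 to 3.37 in the scrambled ones, a difference of 1.44 ± 0.53 (limma adjusted p = 0.20). The scrambled means of both probe sets lay below the median of all probe sets, so the size of these differences is not firm. Col11a2, Col2a1, Col24a1 and Col27a1 differed by -0.042 to 0.026, and the first 3 were dim. Sox9 and Acan, a transcription factor and a proteoglycan of cartilage, had differences of 0.097 ± 0.10 and -0.009 ± 0.15 (limma adjusted p = 0.73 and 0.99).

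**Figure D3:**
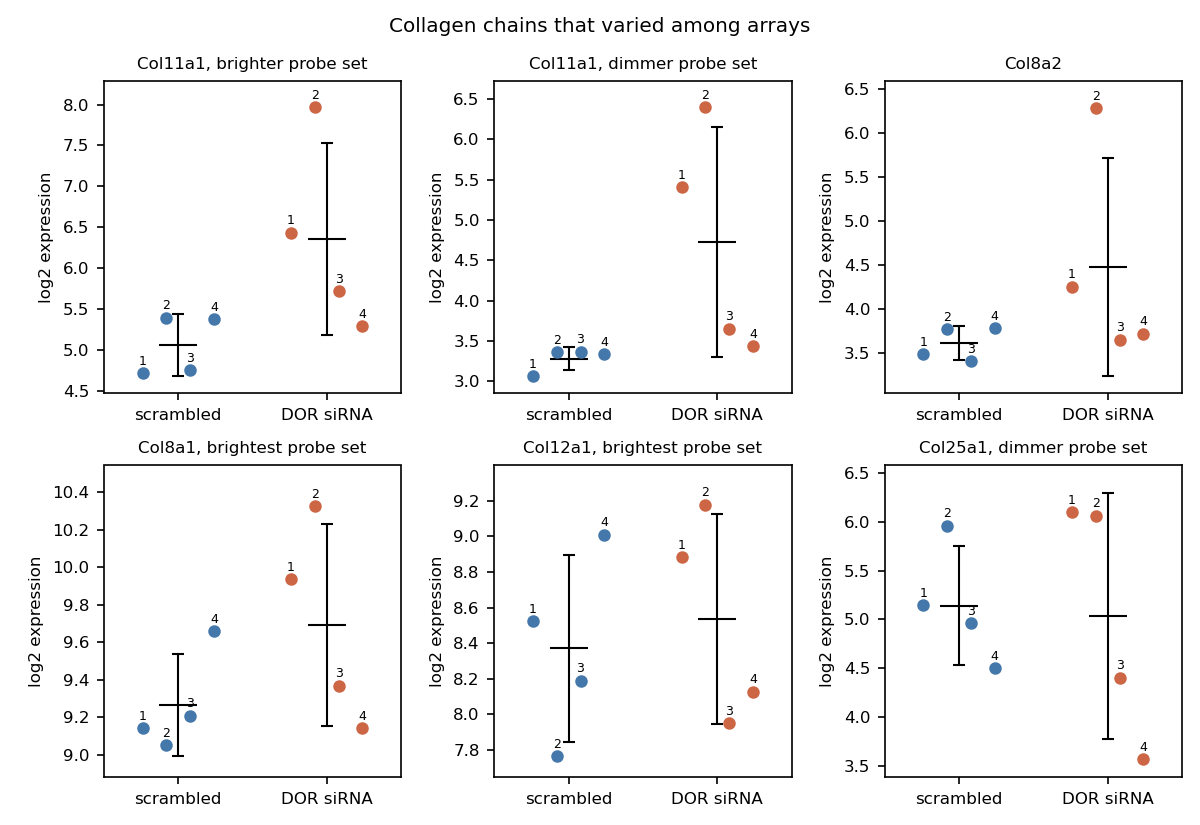
Log2 expression (vertical axis, its range differing between panels) in the 4 scrambled and 4 DOR siRNA arrays for 6 probe sets of chains that varied widely among arrays; points carry the replicate number, and lines show the mean and SD of a group. DOR siRNA 2 was the highest array in all panels but that of the dimmer probe set of Col25a1, and for Col8a2 it read 6.29 where the other DOR siRNA arrays read 3.65 to 4.26.

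Collagen IV of the basement membrane had 6 measured chains, and none passed the limma test. At an unadjusted p below 0.05, 2 were higher and 0 lower, and the median was 0.12. Col4a1, the main chain of that network, read 11.20, 10.90, 11.19 and 10.92 on the scrambled arrays and 11.40, 11.59, 11.43 and 11.05 on the DOR siRNA arrays. DOR siRNA 1 to 3 were above every scrambled array, and DOR siRNA 4 was within their range. The difference was 0.32 ± 0.12 (limma adjusted p = 0.22), or 0.24 ± 0.12 without DOR siRNA 2. Its partner Col4a2, which starts 21 bases away on the opposite strand of the same stretch of DNA, differed by 0.29 ± 0.12 (limma adjusted p = 0.26), or 0.23 ± 0.12 without DOR siRNA 2. The chains of kidney and lung membranes differed by 0.15 (Col4a5), 0.084 (Col4a3), 0.055 (Col4a4) and -0.15 (Col4a6). Leaving out DOR siRNA 2 lowered the value of the brighter Col4a5 to 0.043 ± 0.10. Col4a6 was dim and was the 1 chain whose DOR siRNA arrays, 5.68 to 5.82, lay wholly below the scrambled ones, 5.83 to 5.97 (difference -0.15 ± 0.07, limma adjusted p = 0.35).

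Multiplexins comprised Col18a1 and Col15a1, and neither passed, also at an unadjusted p below 0.05. Col18a1, the source of the fragment endostatin, read 8.92, 8.75, 8.59 and 8.51 on the scrambled arrays and 9.15, 9.42, 8.79 and 8.73 on the DOR siRNA arrays. The DOR siRNA array was the higher one at each replicate number, while the groups overlapped. The difference was 0.33 ± 0.15 (limma adjusted p = 0.33, and 0.082 in the paired fit), and 0.35 ± 0.17 by the dimmer probe set (limma adjusted p = 0.36, and 0.044 in the paired fit). Without DOR siRNA 2 the brighter probe set differed by 0.20 ± 0.13. Col15a1, a chain of muscle basement membranes, was dim, with 4.90 to 5.37 against 5.07 to 5.51 and a difference of 0.011.

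Transmembrane collagens had 4 measured genes with 0 past the limma test, 1 higher and 0 lower at an unadjusted p below 0.05. The 1 was Col17a1, a chain of the hemidesmosomes of skin, whose DOR siRNA arrays (3.91 to 4.03) lay wholly above the scrambled ones (3.42 to 3.78). Its level was among the dim ones, and the difference was 0.33 ± 0.09 (limma adjusted p = 0.069). Col25a1, known from the innervation of muscle, read 7.09, 7.01, 6.91 and 7.09 on the scrambled arrays and 6.95, 7.00, 6.97 and 7.09 on the DOR siRNA arrays by its brighter probe set, a difference of -0.023 ± 0.07. The groups lay in the same range. Its dimmer probe set ranged far in both, with 5.15, 5.96, 4.96 and 4.50 in the scrambled and 6.10, 6.06, 4.40 and 3.57 on the DOR siRNA arrays. There the replicate numbers 1 and 2 read above 3 and 4 in both groups, with the wider spread in the DOR siRNA arrays, and the difference was -0.11 ± 0.52. Col13a1, a chain of the neuromuscular junction, and Col23a1 differed by -0.006 and 0.11.

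Among the 5 other chains none passed, and none was past an unadjusted p of 0.05 in either direction. Col8a1, a short-chain collagen of vessel walls, read 9.14, 9.05, 9.21 and 9.66 on the scrambled arrays and 9.94, 10.33, 9.37 and 9.14 on the DOR siRNA arrays. DOR siRNA 1 and 2 were above all scrambled arrays and the others were among them. The difference was 0.43 ± 0.23 (limma adjusted p = 0.43), or 0.22 ± 0.19 without DOR siRNA 2. Its partner Col8a2 was dim but for 1 array. It read 3.49, 3.77, 3.41 and 3.78 on the scrambled arrays and 4.26, 6.29, 3.65 and 3.72 on the DOR siRNA arrays, a difference of 0.87 ± 0.47 (limma adjusted p = 0.43) that was 0.27 ± 0.15 without DOR siRNA 2. Col7a1 of anchoring fibrils, Col10a1 of growth plates and Col26a1 differed by 0.045, -0.11 and -0.036, and Col7a1 by 0.026 without DOR siRNA 2.

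The spread among the DOR siRNA arrays followed 1 order in many chains. Among the 22 chains at or above the median, DOR siRNA 2 was the highest DOR siRNA array in 16, against 43.5% of all genes at that level. DOR siRNA 4 was the lowest in 16 of the 22, where all such genes had 35.0%. Both held in 15 of the 22 chains, and in 2579 of the 11268 such genes. The mean shift of these chains from their scrambled mean was 0.32 for DOR siRNA 1, 0.51 for DOR siRNA 2, 0.19 for DOR siRNA 3 and 0.005 for DOR siRNA 4, with -0.096 to 0.066 among the scrambled arrays. So as a group of 22 the chains lay within the scrambled range on DOR siRNA 4 and above it on the other 3. The SD among DOR siRNA arrays exceeded 2 times that among scrambled arrays in 6 of the 22, against 13.3% of genes at that level. The 7 chains that departed from the order were Col7a1, Col9a1, Col9a3, Col12a1, Col20a1, Col25a1 and Col27a1.

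By class, the brighter collagen VI chains were shifted on every DOR siRNA array, by 0.76, 1.07, 0.84 and 0.34, with -0.14 to 0.26 among the scrambled arrays. The 7 brighter fibrillar chains were shifted by 0.22, 0.47, 0.093 and -0.19, so that DOR siRNA 4 lay below the scrambled range of -0.073 to 0.10. The 3 brighter collagen IV chains were shifted by 0.29, 0.49, 0.22 and 0.007. Remaining Trp53inp2 was 9.93 on DOR siRNA 2, 9.46 and 9.49 on DOR siRNA 1 and 3 and 9.18 on DOR siRNA 4. The array with the largest collagen shift was thus the one with the most Trp53inp2 left, and the array with the smallest shift the one with the least, over only 4 arrays and with no test. This order is of levels, not of the drop. Scrambled 4 also held the least Trp53inp2 of its group, 10.92 against 11.43 to 11.55. Between same-numbered arrays Trp53inp2 went from 11.50 to 9.46 at number 1 and from 11.55 to 9.93 at number 2. It went from 11.43 to 9.49 at number 3 and from 10.92 to 9.18 at number 4. The drop was thus largest at number 1 and smallest at number 2, the number of the largest collagen shift.

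**Figure D4:**
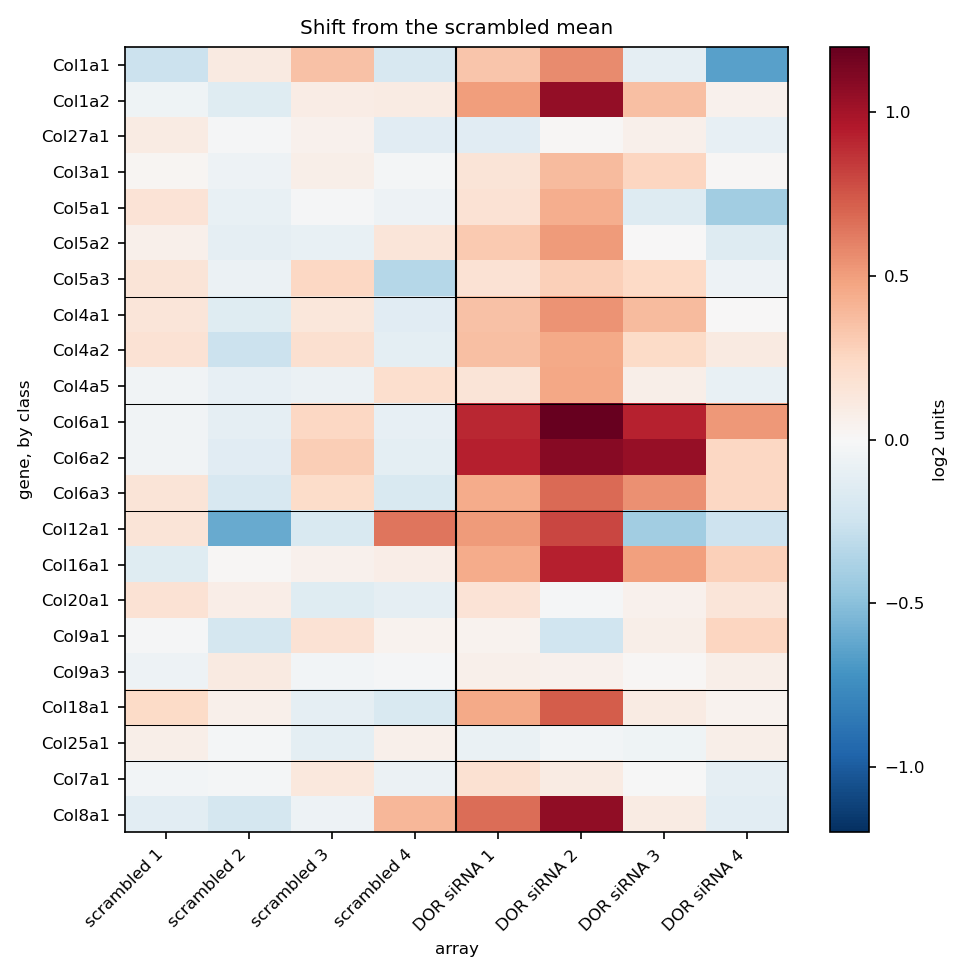
Shift of each of the 22 brighter collagen chains from its scrambled mean, in log2 units, on each of the 8 arrays (columns), with chains in rows by class; colours end at 1.2, and Col6a1 on DOR siRNA 2 lay beyond that. DOR siRNA 2 had the highest mean shift over these chains, 0.51, and DOR siRNA 4 the lowest of the knockdown arrays, 0.005.

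Partner chains of 1 helix were compared within arrays, for 5 pairs chosen after the values were seen. Col6a3 lay 0.46 log2 units lower relative to Col6a1 in the DOR siRNA arrays than in the scrambled ones, with no overlap between the groups (exact two-sided permutation p = 0.029, the smallest that 4 against 4 arrays allow, and 0.14 adjusted over 5 pairs). Col6a2 relative to Col6a1 changed by -0.11 (exact p = 0.40, adjusted 0.50). For Col5a2 relative to Col5a1 the change was 0.16 (exact p = 0.11, adjusted 0.19), and it was -0.15 with the mean over probe sets. For Col4a2 relative to Col4a1 it was -0.028 (exact p = 0.71, adjusted 0.71). Of these and the Col1a2 pair none passed after adjustment.

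Neighbours in the genome can also be set side by side. The mouse genome holds 7 pairs of adjacent collagen genes among the measured ones. Col6a1 and Col6a2 rose by 0.94 and 0.83, Col4a1 and Col4a2 differed by 0.32 and 0.29, and Col3a1 and Col5a2 by 0.20 and 0.17. In Col4a3 with Col4a4 and Col6a4 with Col6a5 both members were dim with differences of 0.015 to 0.084. Opposite signs were found for Col4a5 (0.15) with Col4a6 (-0.15) and for Col9a1 (0.034) with Col19a1 (-0.29), none of which passed.

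The genes that make, process, break down and bind collagen gave 60 measured members in 4 lists, of which 1 rose, 0 fell and 59 missed the limma threshold, against 3.11% of all genes higher and 1.45% lower. At an unadjusted p below 0.05, 21 were higher and 1 lower, where all genes had 11.5% higher and 6.55% lower, and the median was 0.16. In the paired fit 7 rose and 1 fell, against 5.10% and 3.16% of all genes. Without DOR siRNA 2, 1 rose and 1 fell, a count for which the share of all genes in that fit is not given here. Hydroxylation, folding and export had 21 members with 1 that rose and a median of 0.19. This was Crtap, a subunit of the complex that hydroxylates a single proline of collagen I chains. It read 9.60, 9.63, 9.67 and 9.54 on the scrambled arrays and 10.17, 10.51, 10.25 and 9.93 on the DOR siRNA arrays. The groups were clearly apart, and the difference was 0.61 ± 0.11 (limma adjusted p = 0.017). The call was lost without DOR siRNA 3 (limma adjusted p = 0.058) and without scrambled 1 (0.054), and held without DOR siRNA 2 (0.51 ± 0.09, limma adjusted p = 0.019).

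Lysyl hydroxylases, named here after their values were seen, differed in sign. Plod2, which modifies the ends of fibrillar chains, differed by 0.65 ± 0.19 (limma adjusted p = 0.094, and 0.045 in the paired fit), and by 0.43 ± 0.11 without DOR siRNA 2 (limma adjusted p = 0.061). Plod1, which modifies the helix, differed by -0.54 ± 0.15 (limma adjusted p = 0.085, and 0.016 in the paired fit), and Plod3 by 0.23 ± 0.09. Plod1 passed without DOR siRNA 2 (-0.68 ± 0.13, limma adjusted p = 0.020). Serpinh1, the collagen chaperone, differed by 0.067 ± 0.10.

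Of the 15 genes of procollagen processing and cross-linking 0 passed the limma test, with 7 higher and 0 lower at an unadjusted p below 0.05 and 3 higher in the paired fit. The smallest p belonged to Pcolce2, an enhancer of procollagen cleavage (0.54 ± 0.13, limma adjusted p = 0.053, and 0.014 in the paired fit), and to Dcn, the fibril-binding proteoglycan decorin, which the fibroblast list also holds (0.56 ± 0.15, limma adjusted p = 0.077, and 0.0076 in the paired fit). The remaining gene higher in the paired fit was Lum, which the fibroblast list holds too. Collagen breakdown and its inhibitors, 15 genes, also had 0 that passed, while at an unadjusted p below 0.05 there were 5 higher and 0 lower. Its first members were the gelatinase Mmp2 (0.64 ± 0.16, limma adjusted p = 0.058) and the membrane-bound Mmp16 (0.78 ± 0.21, limma adjusted p = 0.079, and 0.023 in the paired fit). Among 9 collagen receptors 0 passed, with 2 higher and 0 lower at an unadjusted p below 0.05, and the median was -0.016. Itga10, an integrin chain for collagens, differed by 0.55 ± 0.15 (limma adjusted p = 0.077, and 0.019 in the paired fit) and the adhesion receptor Adgrg1 by 0.29 ± 0.11 (limma adjusted p = 0.21). None of these 6 passed without DOR siRNA 2. The differences were then 0.45 ± 0.13 for Pcolce2, 0.64 ± 0.15 for Dcn, 0.52 ± 0.15 for Mmp2, 0.55 ± 0.15 for Mmp16, 0.40 ± 0.11 for Itga10 and 0.26 ± 0.12 for Adgrg1 (limma adjusted p between 0.051 and 0.33).

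**Figure D5:**
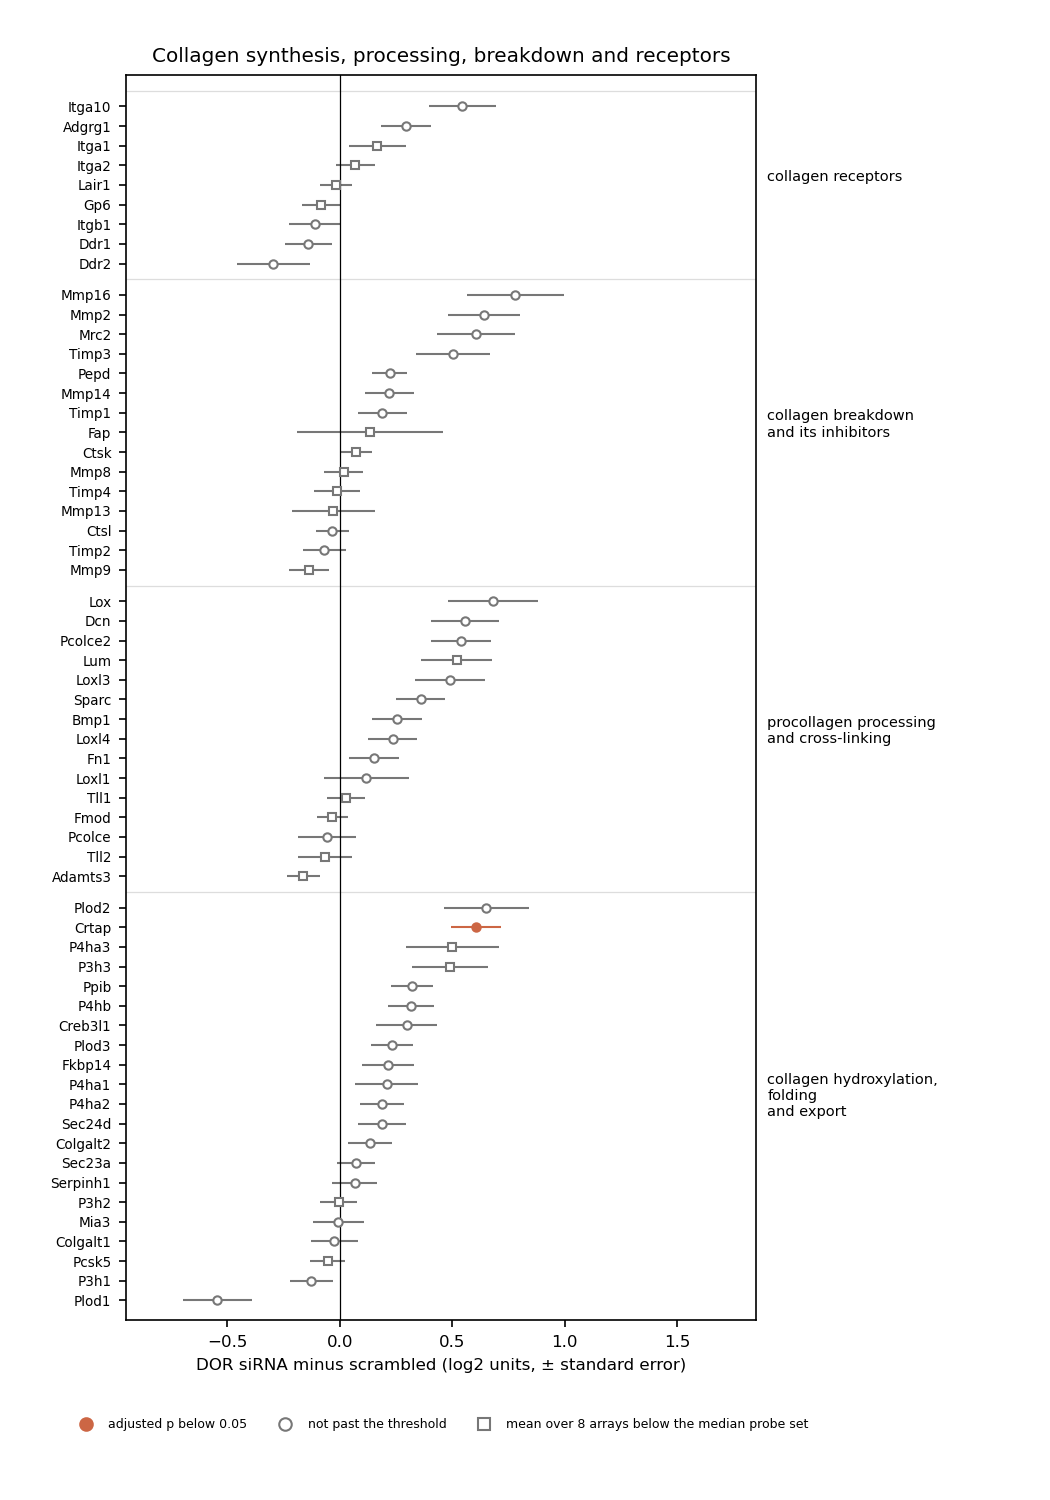
Difference between DOR siRNA and scrambled cultures in log2 units (horizontal axis) for 60 genes of collagen synthesis, processing, breakdown and binding, in 4 lists; bars are standard errors from the limma fit over 4 arrays in each group. Crtap, at 0.61, is the 1 filled circle, and squares mark genes whose mean over the 8 arrays lay below the median of all probe sets.

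Marker genes of the cell types that could hold these transcripts moved as well. In bulk RNA, fewer cells of a type and less RNA per cell cannot be told apart. For the marker counts that follow, all genes had 3.11% called higher and 1.45% lower, or 5.10% and 3.16% in the paired fit. Of 10 myotube markers 4 fell (Myh3, Myh8, Actn2 and Tnnt3), with a median difference of -0.37 over the list. The largest differences were those of Myh8 (-1.89) and Actn2 (-1.71). The mean level of the 10 markers was 12.76 to 13.11 log2 units in the scrambled and 11.96 to 12.49 in the DOR siRNA arrays. Of 8 markers of myoblasts and reserve cells 4 rose (Cd34, Vcam1, Id3 and Ccnd1) and Ncam1 fell, and their mean level was 8.60 to 8.79 against 9.12 to 9.60. Fibroblast markers had 10 members, with Pdgfra (0.57 ± 0.12, limma adjusted p = 0.033) and Twist2 (0.49 ± 0.10, limma adjusted p = 0.029) higher, and a mean level of 7.49 to 7.67 against 7.70, 7.98, 7.72 and 7.41 in DOR siRNA 1 to 4. By this mean DOR siRNA 2 was the highest and DOR siRNA 4 the lowest of these arrays, as for the collagen chains. Both held in 6 of the 10 genes. The mean on DOR siRNA 4 leans on Postn, which read 8.67 there against a scrambled mean of 11.18. Dcn had the reverse order, with DOR siRNA 4 highest and DOR siRNA 2 lowest. The fibroblast list was split in sign, with 5 of 10 differences above 0 and a median of 0.23. Below 0 were Postn, a matrix protein (-0.94 ± 0.53, limma adjusted p = 0.46), Mfap5 (-0.24), Thy1 (-0.13), Tcf21 (-0.074) and Dpt (-0.032). None of these 5 passed in the main fit. Of the fibroblast markers Thy1, Tcf21 and Lum were dim, at means of 5.01 to 5.57. In the paired fit 4 fibroblast markers rose, with Dcn (adjusted p = 0.0076) and Lum (0.025) added, and Postn fell (0.014). Dcn and Lum are also in the list of procollagen processing, so these are the same results as there. That fit also added Ckm to the myotube markers that fell (0.0063) and Myf5 to the myoblast markers that rose (0.044), and called the dim epithelial Cdh1 lower (-0.59, 0.014). The part of these markers in the collagen differences was not tested. None of 7 chondrocyte and osteoblast, 6 endothelial, 6 leukocyte, 6 epithelial and 4 adipocyte markers passed the limma test. At an unadjusted p below 0.05 these lists had 0 higher, and 1 leukocyte and 1 epithelial marker lower.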

How the data were processed

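Each array came as deposited log2 values by probe set, which the authors computed with RMA according to the submitters' processing notes. Its version is not given in the sources used here. RMA makes array distributions alike, so a shift of all transcripts 1 way would not show. Array medians were 6.14 to 6.20, and 4 arrays a group limit the precision. The platform annotation named the probe sets, those with several symbols (932) or none (9160) going unnamed. All 45037 probe sets that are not controls were compared with limma 3.58.1 (R 4.3.3; group only, eBayes, Benjamini-Hochberg over all of them), and a difference is DOR siRNA minus scrambled with its standard error. The steps were tested on simulated data. Exact permutations used scipy 1.17.1 and figures matplotlib 3.10.9.

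Members and lists were chosen with earlier results of these data known. Per-array values were given by a rule, for called chains, the brightest chain of each class and the 6 with the largest SD among DOR siRNA arrays of those whose higher group mean reached the median of all probe sets. Col6a3, Col8a2, Col4a6, Col17a1, Col19a1 and dimmer probe sets were added after their values were seen. In the lists of related genes up to 4 called members, or the 2 with the smallest p, were named. Col6a6, Col21a1 and Col28a1 were not analysed here.

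Both groups carry replicate numbers 1 to 4. Same-numbered arrays deviated together from their groups (correlations of 0.142 to 0.468 for the 4 pairs, each above 0.1), so the numbers meet the bar for pairing. Arrays of different numbers gave -0.394 to 0.265, a range that holds the lowest same-number value. The pairing is therefore not shown for every number. Calls, counts and permutations did not use the pairing, and a fit with the number as a block is given where it changes a call. Alternatives were that paired fit, a variance trend with a robust prior, array weights, cyclic loess, a filter on dim probe sets, averaging the probe sets of a gene and leaving out each array.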

Additional observations from a re-analysis of the deposited data

Results flagged for a closer look

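Among 84 groups of 4 arrays, 2 for each of 42 collagen chains, 1 held a value far from its group. Col15a1, a chain of muscle basement membranes, read 4.90 on scrambled 2, against 5.30 on the nearest other scrambled array, a gap of 0.839 of the range of that group. The probe set was dim, and chance marks about 1 in 20 such groups.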

How the results depend on the processing

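Of the collagen chains called higher, the count of 3 became 1 to 4 when 1 array was left out, and 4 in the paired fit, which takes the replicate number as a block. The count of chains lower was 0 in each array left out and 1 in the paired fit (Col19a1). Over all probe sets 1452 calls became 2827 with the replicate block, 2628 with array weights and 608 to 2310 with 1 array left out. For the related genes the 1 called higher became 7 with the replicate block, 6 with array weights, 3 with the filter on dim probe sets, 2 with cyclic loess, 2 with the mean over probe sets and 0 to 6 with 1 array left out. Their count of 0 lower became 1 with the replicate block, 1 with array weights and 0 to 1 with 1 array left out. Fewer tests lie behind the filtered counts and fewer arrays behind those with 1 left out. The cause was not tested for any of these changes.

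Signs turned in values near 0 that had not passed. Col1a1 was -0.044 with array weights and -0.14 to 0.26 with 1 array left out. Col5a1 was -0.088 with array weights and -0.13 to 0.15 with 1 array left out, and Col12a1 was -0.051 to 0.38 with 1 array left out. The change of Col5a2 relative to Col5a1 was -0.15 with the mean over probe sets. That of Col4a2 relative to Col4a1 was 0.00102 with that mean and -0.075 to 0.012 with 1 array left out. The cause was not tested. Col6a1 passed under each alternative run. Brightness over background was not measured, so the 20 dim chains are the least certain values.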
